A study of Mus musculus with 14 samples.

Results

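Ahnak took the largest share of the Lin28a-RIP libraries of any gene, and it was examined here together with Ahnak2, Plec, Macf1, Flna, Myh9, Lrp1, Fat1 and Hspg2, a group of genes put together for their very long transcripts. The genes were matched by symbol in the table of each assay, and 8 of the 9 named genes had a row in all 4 tables, among 16545 genes with a row in any table. Ahnak2 was not analysed here. The group was chosen by the share of Lin28a-RIP counts that Ahnak takes, and its members with results of these libraries known, so shares, peak numbers, peak widths and peak overlaps are given as descriptions without a test. The group is called cytoskeletal, but Lrp1 and Fat1 encode cell surface receptors and Hspg2 a secreted matrix protein.

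The libraries came from mouse muscle stem cells (MuSCs) of skeletal muscle, cultured on Matrigel without a treatment, and compared Lin28a+ MuSCs with control MuSCs. Lin28a+ cells were sorted by flow cytometry from muscle of mice with Lin28a-CreERT2 and LSL-tdTomato. In these the Lin28a promoter drives the inducible recombinase CreERT2, which switches on the tdTomato reporter. A sorted cell is one in which the reporter had been recombined. How and when the recombinase was induced is not given in the sources used here. The labels give the genotype as Control or Lin28a positive. The age and sex of the animals and the origin of the control cells are not given in the sources used here. The labels were not checked against the level of Lin28a, which was not analysed here. Input RNA, m6A-RIP and Igf2bp3-RIP were each sequenced in 2 libraries of control and 2 libraries of Lin28a+ MuSCs, and Lin28a-RIP in 2 libraries of Lin28a+ MuSCs alone, so the Lin28a-RIP values have no counterpart in control cells. The study describes its replicates as biological without saying whether these libraries came from separate animals or cultures, so each p-value measures only the spread between these libraries. In the input, the summed CPM (counts divided by the library total and scaled alike in every library) of 8 myogenic markers were 9038 to 9454 in control and 11625 to 11791 in Lin28a+ MuSCs. Of these markers 3 were called higher and 3 lower, where 28.1% and 28.7% of all genes were. Pax7 went from 139 and 154 to 194 and 190 CPM, Cdh15 from 1295 and 1388 to 2286 and 2373 CPM and Myog from 748 and 774 to 2785 and 2837 CPM. Myf5 went from 441 and 464 to 198 and 202 CPM, Des from 1644 and 1728 to 1195 and 1196 CPM and Vcam1 from 16.4 and 18.3 to 4.00 and 5.28 CPM. Myod1 was at 4542 and 4708 against 4752 and 4775 CPM and Itga7 at 213 and 219 against 211 and 212 CPM. The summed CPM of the markers of other cell types was at most 14.2 for fibro-adipogenic progenitors (no row for Dcn, Lum and Dpp4), 0.812 for endothelium (no row for Cdh5, Kdr, Tek and Emcn), 5.59 for macrophages (no row for Adgre1) and 0.844 for Schwann cells (no row for Sox10 and S100b). The list for pericytes and smooth muscle (no row for Kcnj8 and Cspg4) went from 5460 to 5541 CPM in control to 7679 to 7693 CPM in Lin28a+ MuSCs, with 2 of 3 tested genes called higher and 1 lower. Acta2 was at 5311 and 5396 against 7484 and 7495 CPM, Notch3 at 146 and 143 against 194 and 197 CPM and Rgs5 at 2.38 and 2.09 against 0.198 and 0.206 CPM, and Myh11 was at most 0.0804 CPM. These sums add input values that are not corrected for length and may be means over transcripts, so each is read between the libraries and only roughly against another list. The part of these differences in the results below was not tested.

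Ahnak encodes a giant scaffold protein beneath the plasma membrane, and most of its coding sequence lies in a single very large exon. Plec (plectin) and Macf1 are cytolinkers of the plakin family, which tie intermediate filaments, actin and microtubules to one another and to adhesion sites. Flna (filamin A) crosslinks actin, Myh9 is the heavy chain of non-muscle myosin IIA, Lrp1 is an endocytic receptor, Fat1 is an atypical cadherin and Hspg2 (perlecan) is a heparan sulfate proteoglycan of the basement membrane. Lin28a and Igf2bp3 are RNA-binding proteins, of which Igf2bp3 is known as a reader of N6-methyladenosine (m6A), a base modification of mRNA. In RIP-seq, RNA bound to an antibody target is pulled down and sequenced, and a peak is a stretch of the genome where such reads accumulate.

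Lin28a-RIP peaks covered the annotated start of 5 of these genes. RefSeq (GRCm38.p6, the coordinates known as mm10) gave a start for 7 of the 8 genes, and the start was inside a Lin28a-RIP peak for Ahnak, Myh9, Flna, Lrp1 and Fat1, compared with 182 of 2671 genes (6.81%) with such peaks. For Igf2bp3-RIP the start was covered for 1 of the 7 genes, Fat1, and for 117 of 3472 genes (3.37%). The genes were chosen with their Lin28a-RIP signal known and have 4 (Ahnak) to 81 (Macf1) Lin28a-RIP peaks, against a median of 3. A peak over a start was thus more likely in them beforehand, and the comparison is a description. The 200 bases before these starts are shown because they are the sequence beside the peaks, printed 5′ to 3′ on the strand of the gene. Capitals mark the bases that lie inside the Lin28a-RIP peak. The windows are chr19:8989084-8989283 (plus strand) for Ahnak, chr15:77842176-77842375 (minus) for Myh9, chrX:74246535-74246734 (minus) for Flna, chr10:127621149-127621348 (minus) for Lrp1 and chr8:44950008-44950207 (plus) for Fat1.
Ahnak: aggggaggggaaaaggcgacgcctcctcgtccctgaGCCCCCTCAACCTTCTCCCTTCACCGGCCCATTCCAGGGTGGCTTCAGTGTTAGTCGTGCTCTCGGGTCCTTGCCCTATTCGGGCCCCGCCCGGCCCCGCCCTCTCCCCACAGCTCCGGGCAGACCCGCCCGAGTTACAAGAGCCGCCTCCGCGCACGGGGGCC
Myh9: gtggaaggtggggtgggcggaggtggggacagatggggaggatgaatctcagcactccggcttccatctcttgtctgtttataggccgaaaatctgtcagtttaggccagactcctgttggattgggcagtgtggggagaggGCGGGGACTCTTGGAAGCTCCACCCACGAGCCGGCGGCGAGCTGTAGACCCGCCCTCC
Flna: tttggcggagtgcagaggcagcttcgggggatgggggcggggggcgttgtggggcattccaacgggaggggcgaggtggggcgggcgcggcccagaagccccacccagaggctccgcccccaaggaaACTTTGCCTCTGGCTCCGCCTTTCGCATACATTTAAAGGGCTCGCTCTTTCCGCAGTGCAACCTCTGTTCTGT
Lrp1: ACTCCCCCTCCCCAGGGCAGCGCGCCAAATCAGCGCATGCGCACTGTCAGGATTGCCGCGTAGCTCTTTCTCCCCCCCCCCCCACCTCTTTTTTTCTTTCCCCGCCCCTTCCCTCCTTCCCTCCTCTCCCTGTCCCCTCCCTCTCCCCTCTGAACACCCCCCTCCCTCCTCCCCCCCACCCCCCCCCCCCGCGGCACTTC
Fat1: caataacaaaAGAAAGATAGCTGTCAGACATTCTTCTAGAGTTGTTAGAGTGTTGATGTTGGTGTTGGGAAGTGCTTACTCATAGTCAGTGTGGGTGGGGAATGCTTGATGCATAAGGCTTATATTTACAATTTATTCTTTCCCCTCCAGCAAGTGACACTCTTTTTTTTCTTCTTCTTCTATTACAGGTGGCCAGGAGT
The peak at the start of Ahnak reached 164 bases upstream, that of Myh9 58 bases, that of Flna 73 bases, that of Lrp1 520 bases and that of Fat1 190 bases. The starts used for Flna and Fat1 lie inside the span of the gene, so a longer transcript can run through those windows. The windows differed in composition, from 39.5% G and C with no CpG in Fat1 to 70% with 17 CpG in Ahnak, against a median of 53% and 5 CpG over 32851 annotated windows of the same length. The tetramer GGAG, a motif known from Lin28 binding to let-7 precursors, was counted on both strands. It occurred once or more in each of the 5 windows, with 1 copy on the gene's strand in Ahnak, 3 in Myh9, 2 in Flna, 0 in Lrp1 and 1 in Fat1, and 5, 4, 2, 10 and 1 copies on the opposite strand. Of all windows of this length, 90.9% held it on either strand, so these matches do not set the genes apart. The start peaks were minor parts of the signal in Ahnak, with 4981 and 5219 counts, but held 50341 and 46849 counts in Fat1, where the peak is 3463 bp wide.

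Lin28a-RIP peaks lay on 3491 genes, and these 8 genes (0.229% of them) held 9.10% and 9.02% of all counts in the 2 libraries. Ahnak alone took 2.72% and 2.76% and ranked first in both. Flna followed with 1.18% and 1.15%, Lrp1 with 1.09% and 1.08%, and Myh9 with 1.08% and 1.06%, so that the first 4 places were all taken by genes of this group. Plec had the fifth place, with 1.02% and 0.981%. Macf1 (0.742% and 0.759%) was ninth, Fat1 (0.704% and 0.701%) twelfth and Hspg2 (0.558% and 0.539%) sixteenth. Each of the 8 genes had the same rank in both libraries, although the mean shares of Lrp1 and Myh9 lay closer together than the 2 libraries of Myh9. These shares are not corrected for transcript length. The plot of shares shows how narrow the range of Lin28a-RIP is beside that of Igf2bp3-RIP.

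**Figure D1:**
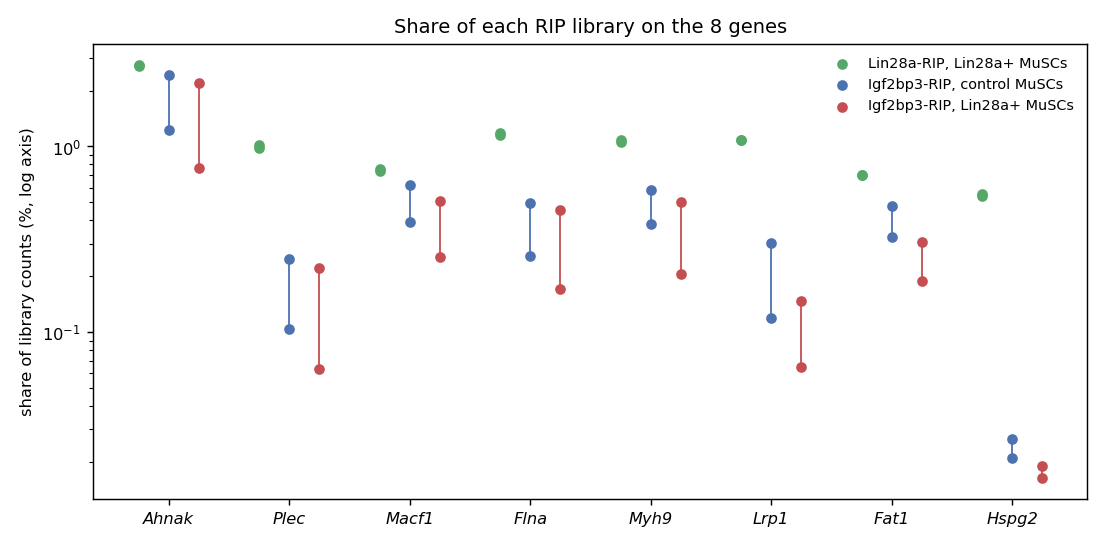
Share of library counts (%, log axis) on each gene, with a point for each library of Lin28a-RIP (green), Igf2bp3-RIP of control MuSCs (blue) and Igf2bp3-RIP of Lin28a+ MuSCs (red), and a line joining the 2 libraries of a group. Ahnak has the highest share in every group and Hspg2 the lowest, and the Igf2bp3-RIP libraries of a group lie further apart than those of Lin28a-RIP.

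The genes reached these shares in different ways. Ahnak had 4 Lin28a-RIP peaks, of which a single one, 17673 bp wide at chr19:9001524-9019196, held 956584 and 895755 counts, or 95.9% of the counts of the gene. It was the second widest of 21616 Lin28a-RIP peaks, after one of 19060 bp in Plekha3. In Plec a peak of 11094 bp at chr15:76170978-76182071 held 65.6% of the counts, and the gene had 12 peaks. Macf1 had 81 peaks, a number that only 3 genes exceeded, and its largest peak held 10.5% of its counts. The counts were likewise divided among many peaks in Lrp1 (52 peaks, at most 6.82% of its counts in any of them), Hspg2 (30 peaks, 11.3%), Myh9 (29 peaks, 8.54%), Fat1 (25 peaks, 23.5%) and Flna (14 peaks, 16.6%). Over all genes the median was 3 peaks, and the median peak was 285 bp wide, compared with 398 bp for the 247 peaks of these genes. Of 46 Lin28a-RIP peaks of 5000 bp or more, 3 lay in this group, in Ahnak, Plec and Macf1 (5492 bp).

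The density of counts within peaks, a level per length, was also high. Ahnak had 1418 CPM per kb of peak, above 99.8% of the genes in the table, and Flna 821, Myh9 762 and Plec 497 CPM per kb, above 98.8% to 99.4% of genes. Lrp1 (358), Fat1 (357) and Hspg2 (334 CPM per kb) exceeded 97.1% to 97.5% of genes and Macf1 (174) 91.6%. The median over all genes was 47.3 CPM per kb. The largest peak ended 3 bp from the 3′ end of the annotated gene in Hspg2 and 76 bp from it in Lrp1. In Ahnak it began 12240 bp from the start of a RefSeq span of 87652 bp. No Ahnak peak reached past 29.912 kb of that span, so this place in the span is not a place in the spliced transcript. Exon boundaries were not used here.

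**Figure D2:**
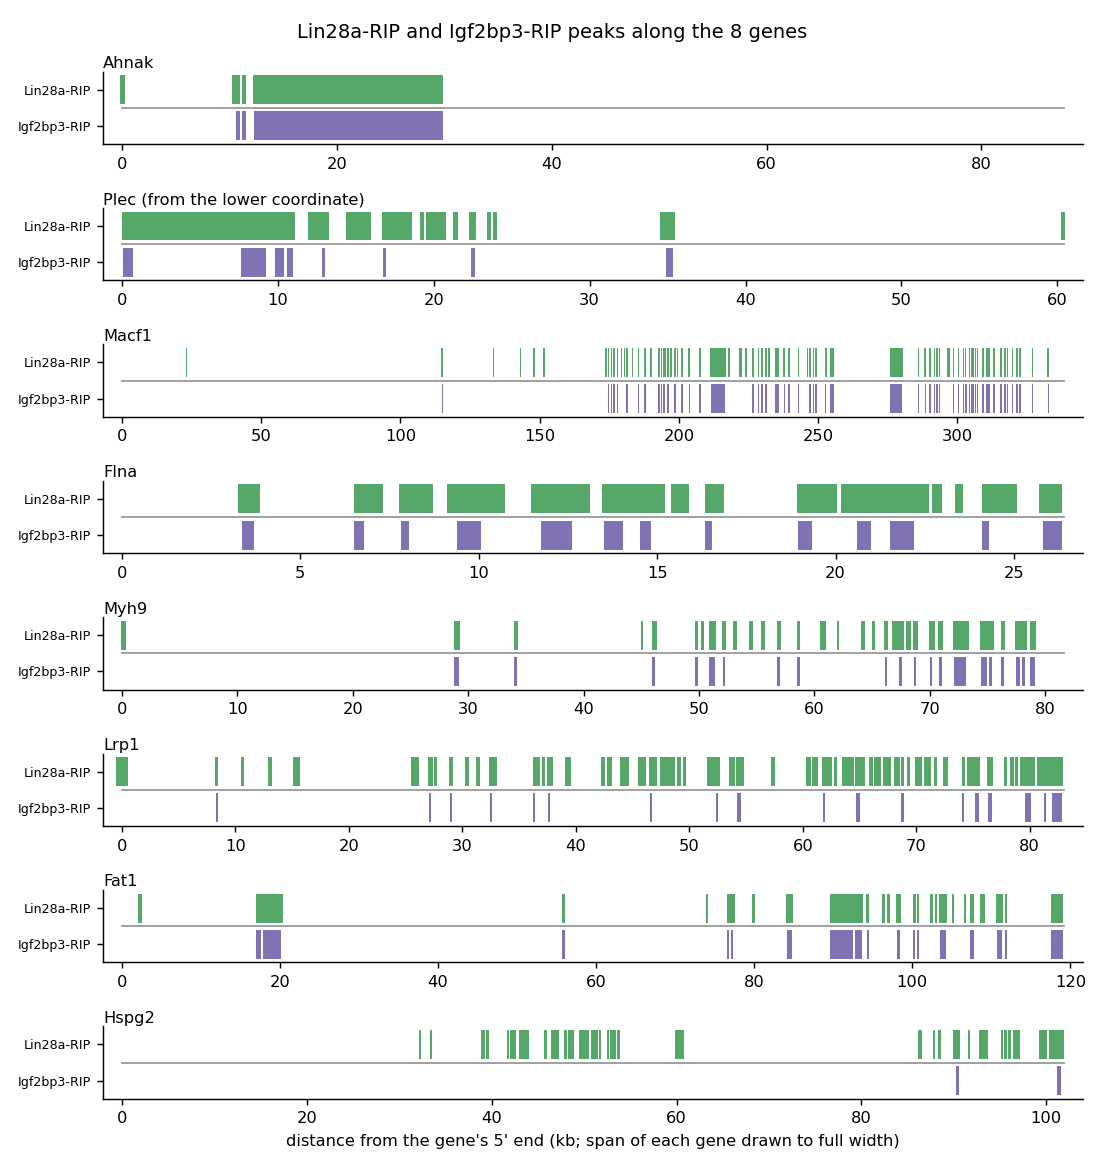
Position of each Lin28a-RIP peak (green, upper row) and Igf2bp3-RIP peak (purple, lower row) as distance in kb from the 5′ end of the gene, or for Plec, whose strand was in no table used here, from its lower coordinate. Each grey line is the RefSeq span of the gene, drawn to the full width. The single wide block of Ahnak is nearly the same in both assays, while Hspg2 has 30 green and 2 purple blocks.

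Igf2bp3-RIP peaks lay on the same 8 genes, with 143 peaks in place of 247. Ahnak again had a single dominant peak of 17656 bp, at chr19:9001537-9019192, which was the widest of 19465 Igf2bp3-RIP peaks, lay inside the Lin28a-RIP peak and held 97.6% of the counts of the gene. Macf1 had 62 peaks, exceeded by 1 gene, Myh9 20, Lrp1 18, Fat1 17, Flna 13 and Plec 8. Hspg2 had 2 peaks, of 383 and 437 bp. The share of the library taken by all 8 genes was 2.83% and 5.18% in control and 1.72% and 4.36% in Lin28a+ MuSCs.

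All 143 Igf2bp3-RIP peaks of these genes shared 1 bp or more with a Lin28a-RIP peak (100%, 95% interval by the Wilson method 97.4 to 100), compared with 77.0% of 15058 peaks (76.4 to 77.7) in the other genes with peaks in both tables. In the other direction, 131 of 247 Lin28a-RIP peaks (53.0%, 46.8 to 59.2) overlapped an Igf2bp3-RIP peak, against 57.6% of 19433 peaks (56.9 to 58.3) in those other genes. When each peak had to cover at least 50% of the other, 67.8% of the Igf2bp3-RIP peaks and 39.3% of the Lin28a-RIP peaks of these genes overlapped, against 61.0% and 47.3% in the other genes. Wider peaks overlap more readily, and the intervals cover counting error only. They treat peaks as independent, although 62 of the 143 Igf2bp3-RIP peaks lie in Macf1. The genes were also chosen with their Lin28a-RIP signal known, so the difference from other genes is a description. The share of Lin28a-RIP peaks with an Igf2bp3-RIP partner ranged widely within the group, from 11 of 14 in Flna and 60 of 81 in Macf1 to 17 of 52 in Lrp1 and 2 of 30 in Hspg2. The Lin28a-RIP peaks with a partner held 99.5% of the Lin28a-RIP share of Ahnak, 93.0% of Flna, 89.4% of Macf1, 84.8% of Fat1, 83.7% of Plec, 76.2% of Myh9, 43.0% of Lrp1 and 16.0% of Hspg2. In each gene the median peak with a partner had more counts than the median peak without, from 822 against 227 CPM in Flna to 81.9 against 37.9 CPM in Macf1. The peaks with a partner were also wider in each gene, with medians of 984 against 262 bp in Flna, 1363 against 263 bp in Plec and 389.5 against 287 bp in Macf1, and counts per length were not compared between them.

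A ratio of the shares in the 2 assays depends on how much of a gene was called as peak in each, since peaks were called separately. Within Lin28a+ MuSCs, the mean share in Lin28a-RIP over the mean share in Igf2bp3-RIP was 31.0 for Hspg2, 10.2 for Lrp1, 7.02 for Plec, 3.74 for Flna, 3.03 for Myh9, 2.84 for Fat1, 1.97 for Macf1 and 1.85 for Ahnak, with a median of 0.954 over the 2736 genes with peaks in both tables. Over the single Lin28a+ libraries the ratio was 28.3 to 34.1 in Hspg2. It was 7.31 to 16.7 in Lrp1 and 4.42 to 16.1 in Plec, which overlap. It was 2.54 to 6.91 in Flna, 2.12 to 5.24 in Myh9, 2.28 to 3.74 in Fat1, 1.46 to 2.99 in Macf1 and 1.24 to 3.62 in Ahnak, so that below Hspg2 each gene overlaps its neighbours in this order. The covered lengths followed the same order, from 16422 bp of Lin28a-RIP peak against 820 bp of Igf2bp3-RIP peak in Hspg2, 30326 against 5377 bp in Lrp1 and 20104 against 4323 bp in Plec to 43177 against 29987 bp in Macf1 and 19326 against 18317 bp in Ahnak. Per kb of peak, averaged over all libraries of each assay, the levels were much closer, at 334 against 253 CPM in Hspg2, 358 against 294 in Lrp1, 497 against 367 in Plec, 174 against 148 in Macf1 and 1418 against 904 in Ahnak, and Hspg2 did not stand apart.

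RNA-seq of the input addressed whether these genes are expressed at another level in Lin28a+ MuSCs. In 7 of the 8 genes the RNA level was lower in Lin28a+ than in control MuSCs, by log2 fold changes of -0.15 to -1.54, and each of these passed an adjusted p under 0.05 (edgeR's quasi-likelihood test over 11317 genes, Benjamini-Hochberg adjustment). Of all genes tested, 28.7% were called lower, 28.1% higher and 56.8% in either direction, so a call in itself was common here. The median log2 fold change was -0.84 over the 8 genes and 0.01 over all genes. Input values are estimated counts that look like means over the transcripts of a gene, so the levels of the 8 genes are compared between libraries but not with one another. In bulk libraries, fewer cells that express a gene and less RNA per cell cannot be told apart.

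Among the membrane scaffold and the cytolinkers, Ahnak went from 802 and 834 CPM in control to 363 and 356 CPM in Lin28a+ MuSCs (log2 fold change -1.22, standard error 0.025, adjusted p = 5.2e-06). The 2 groups were far apart, with replicates that differed little. Macf1 had the largest change of the group, from 111 and 113 CPM to 38.9 and 39.4 CPM (-1.54, standard error 0.037, adjusted p = 6.56e-06), and only 4.01% of genes tested had a lower fold change. Plec, the related cytolinker, went from 109 and 112 CPM to 79.9 and 81.0 CPM, a smaller difference than that of Macf1 (-0.48, standard error 0.032, adjusted p = 1.04e-04).

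Of the actin-associated genes, Myh9 was lower, with control libraries at 363 and 376 CPM and Lin28a+ libraries at 243 and 241 CPM (-0.64, standard error 0.025, adjusted p = 2.18e-05). Flna was the exception of the group, its control libraries being at 256 and 270 CPM and its Lin28a+ libraries at 281 and 282 CPM. Its log2 fold change of 0.07 (95% interval -0.01 to 0.14) did not pass the threshold (adjusted p = 0.12), and its interval lies above the fold changes of the other 7 genes. The values of the groups did not overlap, but 44.6% of all genes had libraries that did not overlap with Lin28a+ higher, and 40.0% with Lin28a+ lower, as the other 7 genes had.

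The surface receptors were lower, with Lrp1 at 252 and 261 CPM in control against 126 and 127 CPM in Lin28a+ MuSCs (-1.05, standard error 0.027, adjusted p = 7.65e-06). Fat1 was at 239.8 and 239.7 CPM against 101 and 108 CPM (-1.23, standard error 0.036, adjusted p = 1.05e-05). For the matrix proteoglycan Hspg2 the difference was small, with 763 and 812 CPM against 713 and 740 CPM (-0.15, standard error 0.031, adjusted p = 0.00907). Without the first Lin28a+ column, Hspg2 lost its call (-0.12, adjusted p = 0.0577).

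**Figure D3:**
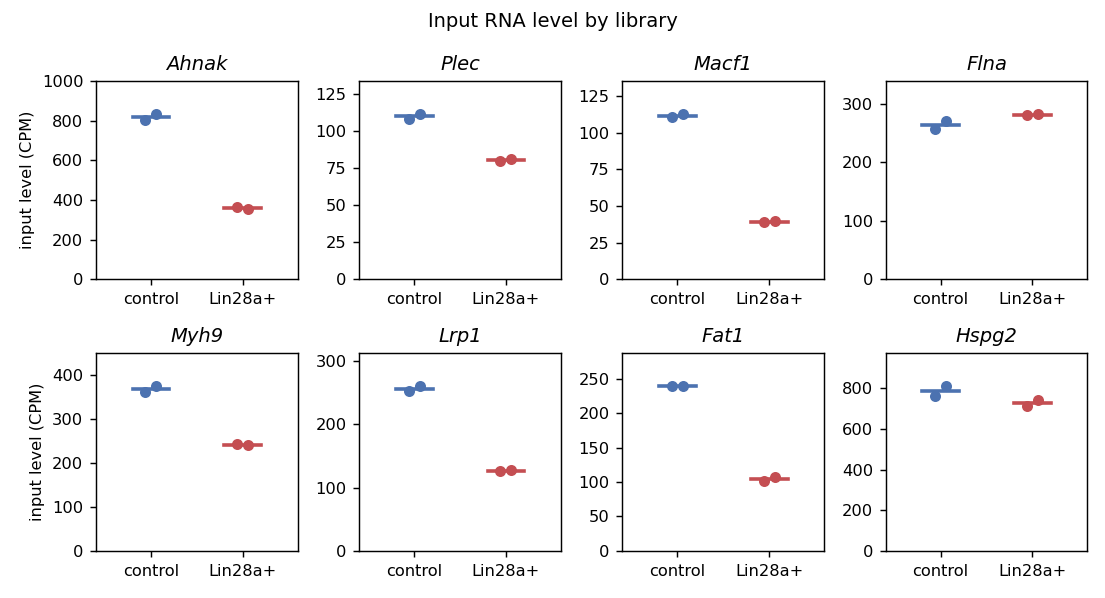
Input level of each gene in CPM (linear axis from 0, scaled per panel), with a point for each of the 2 control (blue) and 2 Lin28a+ (red) libraries and a bar at the group mean. In 7 panels the red points lie below the blue ones, by the least for Hspg2, and in the panel of Flna they lie slightly above.

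Related genes were taken from lists of families and partners. The counts for these short lists are to be read against the 28.7% of all genes called lower and 28.1% called higher in RNA, and no list was tested against other genes. Of the cytolinkers and spectrins, 5 of 6 tested genes were lower and 0 higher in RNA (median log2 fold change -0.65, against 0.01 over all genes), among them Dst (dystonin, a plakin like Plec and Macf1; from 47.0 and 47.5 CPM to 23.3 and 23.4 CPM, -1.05) and Utrn (utrophin, which links actin to the membrane; -1.08). Of 8 filamins and other actin crosslinkers or adhesion linkers, 6 were lower and 1 higher (median -0.36). Vinculin (Vcl, -0.46) and alpha-actinin 4 (Actn4, -0.57) fell, whereas Flnc, the filamin of muscle, rose from 828 and 855 CPM to 1012 and 1029 CPM (0.25). Of the other subunits of non-muscle myosin II, 3 of 6 were higher and 1 lower (median 0.13). Of these, the light chains Myl12b (0.47) and Myl6 (0.41) rose and Myl9 fell (-0.74).

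Among partners of Ahnak at the membrane, Anxa2 (0.34) and S100a10 (0.20), which form a complex with each other, rose, while Dysf (dysferlin, a membrane repair protein; -1.56) fell from 4.88 and 5.69 CPM to 1.98 and 1.57 CPM, with 2 of 3 tested partners higher and 1 lower. In the LDL receptor family beside Lrp1, 5 of 9 genes were lower and 1 higher (median -0.40; 28.7% and 28.1% of all genes), with Lrp4 (-1.05) and Lrp12 (-1.12) lower and Lrp5 (0.51) higher. Of the Fat and Dachsous cadherins, 2 of 3 were lower, Fat4 (-3.25) and Dchs2 (-2.16), and Dchs1 (2.28) was higher from a level of 0.427 and 0.643 CPM. The basement membrane proteins beside Hspg2 were divided, with 7 of 12 lower and 4 higher (median -0.55). Col18a1 fell from 429 and 457 CPM to 31.6 and 29.6 CPM (-3.88) and Nid1 fell (-1.35), whereas Lama5 (1.41) and Col4a1 (0.94) rose. Each gene named from these lists passed the threshold in RNA, with adjusted p between 1.42e-06 (Col18a1) and 0.00357 (S100a10) in edgeR's quasi-likelihood test.

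Peaks on the relatives differed between lists. Over all genes, 3491 of 16545 had a Lin28a-RIP peak, with a median of 3 peaks. Of the 11 cytolinkers and spectrins, 8 had Lin28a-RIP peaks, 329 in all, of which Dst had 79 and Utrn 71. The 8 filamins and actin crosslinkers had 158 Lin28a-RIP peaks and 79 Igf2bp3-RIP peaks. Of 6 non-muscle myosin subunits 1 had Lin28a-RIP peaks, and Myl12b, Myl6 and Myl9 had none. The 13 basement membrane genes had 245 Lin28a-RIP and 67 Igf2bp3-RIP peaks, of which Col4a1 had 39 and 6 and Nid1 20 and 9. In the LDL receptor family 4 of 10 genes had 50 Lin28a-RIP peaks, and among the Fat and Dachsous cadherins 1 of 8 genes had 1. The Ahnak partners had a single peak in each table.

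The m6A-RIP table holds counts per row without positions, and rows of a gene were summed. Per gene, the log2 fold changes followed those of RNA in size, with Macf1 at -1.58, Fat1 at -1.32, Ahnak at -1.30, Lrp1 at -1.06, Myh9 at -0.78, Plec at -0.57, Hspg2 at -0.13 and Flna at 0.10. All 8 passed the threshold in edgeR's quasi-likelihood test over 9413 genes, 7 lower and 1 higher, where 33.7% of all genes were called lower and 32.5% higher. The summed share of the 8 genes was 0.902% and 0.893% of the control libraries and 0.431% and 0.439% of the Lin28a+ libraries. Ahnak went from 3348 and 3320 CPM in control to 1271 and 1257 CPM in Lin28a+ MuSCs, and Plec from 2107 and 2068 CPM to 1286 and 1342 CPM. In 7 genes the Lin28a+ libraries lay below both control libraries, as in 48.5% of all genes. The control libraries of Flna were at 273 and 265 CPM and its Lin28a+ libraries at 273 and 266 CPM, values that overlap, and its call rests on the scaling: its fold change was 0.10 (adjusted p = 0.0373) with TMM factors and 0.0026 (adjusted p = 0.959) with total counts. Total counts moved the median of all genes in the per-gene m6A-RIP by -0.10, and the calls from 3060 higher and 3176 lower to 2390 and 3765. The calls of Flna and Hspg2 were also lost with DESeq2 (adjusted p = 0.0585 and 0.0505), and each was lost in some fits without 1 library, Flna without either control replicate or the first Lin28a+ column (adjusted p = 0.0608 to 0.209) and Hspg2 without control replicate 2 or the first Lin28a+ column (0.0658 and 0.172).

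The rows of a gene can be read one by one. The 8 genes had 73 m6A-RIP rows, of which 68 were called lower and 2 higher, where 31.8% of all 18881 rows were called lower and 30.0% higher. The 17 rows of Ahnak, a number that 2 genes exceeded, were all called lower, within a narrow range of -1.40 to -1.13. The row with the most counts went from 452 and 472 CPM in control to 172.1 and 171.5 CPM in Lin28a+ MuSCs (-1.27, standard error 0.046). The rows of Ahnak changed almost equally: their range of 0.28 was wider than that of only 16.6% of the 529 genes with at least 5 rows, whose median range was 0.54.

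Macf1 was different, with 17 rows all called lower but spread over a range of 1.19, wider than in 82.8% of those genes. Its 6 rows on ENSMUST00000106213.7 had log2 fold changes of -1.89 to -1.70, its 7 rows on ENSMUST00000125447.2 of -1.84 to -1.03, and the single row on ENSMUST00000134458.7 of -2.22, from 12.1 and 11.7 CPM to 2.40 and 2.18 CPM. The rows of Macf1 had fewer counts than those of Ahnak, with medians of 21.4 and 24.3 CPM against 157 and 156 CPM in control, and larger standard errors, with a median of 0.13 against 0.054. The part of depth in the wider range was not tested. All 15 rows of Myh9 (-0.98 to -0.48), all 11 of Fat1 (-1.46 to -1.14), all 7 of Plec (-0.74 to -0.22) and the single row of Lrp1, from 93.8 and 85.9 CPM to 38.4 and 42.0 CPM, were called lower. In Plec the row with the most counts fell the furthest, from 808 and 788 CPM to 427 and 430 CPM. Of the 3 rows of Flna, 2 were called higher (0.17 and 0.16) although their CPM of 114 to 124 in control and 116 to 121 in Lin28a+ MuSCs overlapped. The 2 rows of Hspg2 were not called (-0.24 and -0.08).

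**Figure D4:**
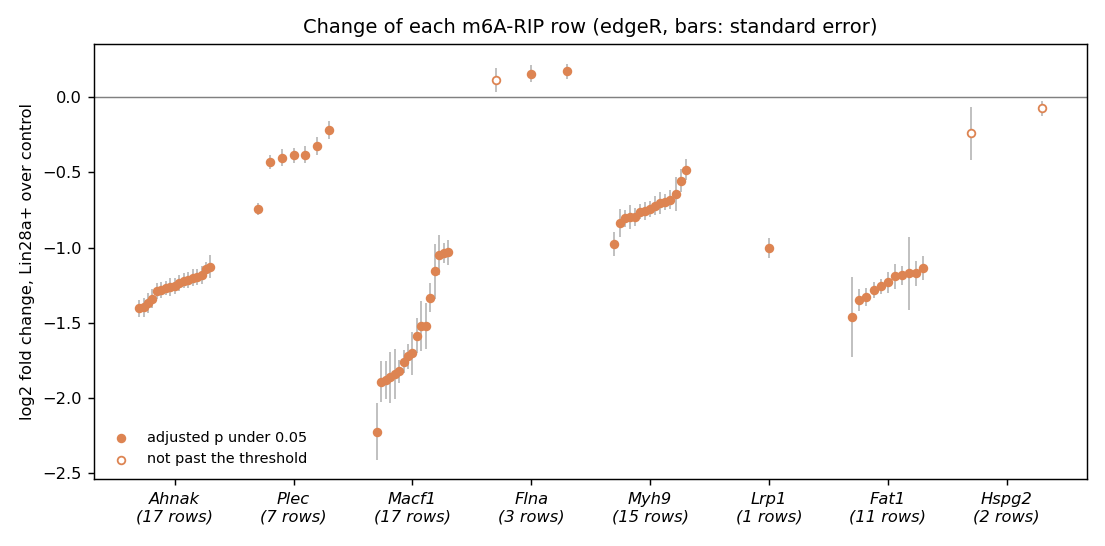
Log2 fold change (Lin28a+ over control) of every m6A-RIP row of the 8 genes, ordered by size within a gene, with standard errors as bars, filled where the adjusted p was under 0.05 and open where not. The 17 rows of Ahnak lie within 0.28 of one another, whereas the 17 rows of Macf1 extend over 1.19.

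To ask whether m6A-RIP changed beyond RNA, the difference of the 2 changes was tested in a single model. None of the 8 genes was called in edgeR (0 of 8), against 7.16% of 7950 genes, 3.06% higher and 4.10% lower, and 1350 of all genes had an unadjusted p under 0.05. DESeq2 called 337 of all genes and none of the 8. The differences were between -0.16 (Myh9, standard error 0.045, adjusted p = 0.0642) and 0.02 (Flna), and 2 genes, Myh9 and Ahnak (-0.10, 95% interval -0.18 to -0.01), had an unadjusted p under 0.05. The intervals of the 8 genes reached no further than -0.26 and 0.15. Myh9 was called without the second Lin28a+ column of m6A-RIP (-0.18, adjusted p = 0.032).

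Igf2bp3-RIP was compared between Lin28a+ and control MuSCs in the same way. The fold changes were negative in all 8 genes, from -0.29 (Flna) to -1.01 (Lrp1), and none was called (0 of 8, against 13 of 4524 genes or 0.287%). None of the 8 had an unadjusted p under 0.05 in edgeR, where 382 of all genes did, and DESeq2 called 115 genes. Ahnak held 1.23% and 2.44% of the control libraries and 0.761% and 2.20% of the Lin28a+ libraries. The second replicate was above the first in both groups, and the groups overlapped. Each Lin28a+ library was below the control library of the same replicate number, but no label ties a number to a shared day or culture. The log2 fold change of Ahnak, -0.33, had a 95% interval of -1.91 to 1.24, which includes both a fall and a rise of 2-fold. Lrp1 held 0.119% and 0.300% of the control and 0.0653% and 0.148% of the Lin28a+ libraries. When the replicate number was set as a block in edgeR, Lrp1 alone of the 8 genes was called (-0.98, adjusted p = 0.0108), among 370 of all genes. Only Fat1 and Hspg2 had libraries that did not overlap, with 0.325% and 0.481% against 0.188% and 0.307% for Fat1, and 0.0210% and 0.0267% against 0.0164% and 0.0191% for Hspg2, where 16.9% of all genes had Lin28a+ libraries below both control libraries and 21.3% above both.

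The replicates of Igf2bp3-RIP differed within each group, for these genes more than for the median gene. The share of Ahnak was 1.98 times as high in replicate 2 as in replicate 1 of control and 2.89 times in Lin28a+ MuSCs, above 98.7% and 99.5% of genes, where the median gene had 0.943 and 0.915. For Plec the ratios were 2.37 and 3.51, for Lrp1 2.53 and 2.27, and for Hspg2 1.27 and 1.17. Leaving out control replicate 2 or Lin28a+ replicate 1 turned the direction of Ahnak (0.32 and 0.29), Plec and Flna, and leaving out Lin28a+ replicate 1 also turned Macf1 and Myh9. Such fits set a single replicate of one group against both of the other, so the replicate difference enters them. With the replicate number as a block, Ahnak (-0.46), Plec (-0.47), Flna (-0.39), Macf1 (-0.49) and Myh9 (-0.59) stayed negative. Of the 143 peaks, all had a negative fold change and none was called (0 of 143, against 0.123% of 19465 peaks, 0.0616% higher and 0.0616% lower, with 1017 of all peaks and 5 of these, 4 in Fat1 and 1 in Lrp1, at an unadjusted p under 0.05; DESeq2 called 263 peaks). The dominant peak of Ahnak had a fold change of -0.34 (standard error 0.63).

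**Figure D5:**
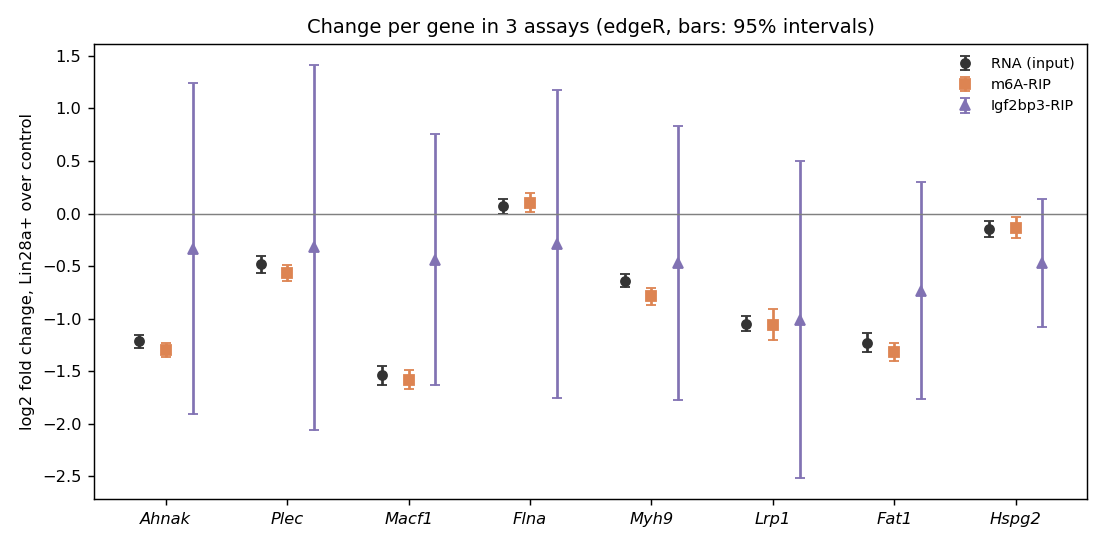
Log2 fold change (Lin28a+ over control) of each gene in RNA (black circles), m6A-RIP (orange squares) and Igf2bp3-RIP (purple triangles), with 95% intervals from edgeR as bars. RNA and m6A-RIP lie close to each other in every gene, and the bars of Igf2bp3-RIP include 0 in all 8 genes.

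Relative to RNA, no gene of the group was called in Igf2bp3-RIP in the main edgeR fit (0 of 8, against 1.04% of 3927 genes, 0.357% higher and 0.688% lower). An unadjusted p under 0.05 was found for 949 of all genes and 0 of these, and DESeq2 called 66 genes. With the replicate number as a block, Flna and Hspg2 were called lower and Macf1 higher, among 1304 of all genes. The differences ranged from -0.59 (Flna) to 0.87 (Macf1), with standard errors of 0.28 (Hspg2) to 0.91 (Plec). Ahnak was at 0.65 with a standard error of 0.77.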

How the data were processed

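The input table holds, per gene, estimated counts that the authors deposited without scaling between libraries, and the RIP tables hold whole-number counts per peak or row that the authors deposited. The sources name FastQC, Hisat2 2.0.4, MACS2 1.4.3, DESeq2 1.42.0 and the builds mm10 and GRCh38, the latter a human assembly, although the identifiers and peak positions are those of mouse. The counting program, the peak threshold, the control library and any pooling before peak calling are not given in the sources used here. Sums per library were 4842915 to 6220960 (input), 21350962 to 31830638 (m6A-RIP), 9215355 to 34142094 (Igf2bp3-RIP) and 36610494 and 33908110 (Lin28a-RIP). Part of the input values have decimals, as a mean over transcripts would give, and the sum is no read number. In the input table the Lin28a+ columns bear m6A-RIP names, and in the m6A-RIP table both have 1 common name. All 4 were mapped to their group without a replicate number and are called first and second column. No column of sample values was left unused (0).

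Between replicates, the chi-square per degree of freedom (1 for sampling noise) was 4.70 in control and 1.01 in Lin28a+ input over all deposited values, many of which are not whole counts, and 1.93 and 1.84 in control and Lin28a+ input, over 4901 and 4856 genes whose values were whole after multiplication by a number up to 20, and 4.46 to 99.7 in the RIP pairs, so each library counted as 1 sample.

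The genes and all lists were chosen with earlier results of these data known. Input values were rounded. The main test was that of edgeR 4.0.16 under R 4.3.3 (quasi-likelihood, TMM factors, filterByExpr, adjusted p under 0.05), and relative to RNA with an interaction of cells and assay. Where edgeR bounds p by a Poisson test, the standard error is the one that p implies. On simulated data with 200 features changed 4-fold, 100% were called in RNA (11250 genes), m6A-RIP (9413 genes) and Igf2bp3-RIP (4524 genes), 96.5% in m6A relative to RNA and 88.5% in Igf2bp3-RIP relative to RNA. The simulated counts had a preset spread and no shift between replicates, and only well-covered features were changed. These rates therefore do not give the power for the genes of the group in Igf2bp3-RIP, whose standard errors there reached 0.71 (Plec). The percentages of overlapping peaks have Wilson 95% intervals, which cover counting error only since peaks of a gene are not independent. Peaks overlap with at least 1 bp in common. RefSeq of GRCm38.p6 gave gene spans, starts and the printed sequences; a planned comparison with genes of like protein length was not used here.

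The text names all members and, from each list of relatives, up to 2 higher and 2 lower genes with the smallest p in RNA among those past the threshold whose libraries do not overlap, and for each gene the rows or peaks with the most counts or an extreme change. The latter and the markers were added with their values in view. Alternatives were DESeq2 1.42.0, other size factors, total counts, no filter or at least 10 counts in every library, each library left out, the replicate number as a block, a minimum of 100 counts per peak in each library and a reciprocal overlap of 50%.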

Additional observations from a re-analysis of the deposited data

How the results depend on the processing

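In RNA, 71 of 72 gene values under alternatives kept direction and call, and in m6A-RIP per gene 64 of 72. DESeq2 called 3039 genes in RNA (main 6432), 115 in Igf2bp3-RIP per gene (main 13), 263 per peak (main 24), 337 in m6A relative to RNA (main 569) and 66 in Igf2bp3-RIP relative to RNA (main 41). Total counts called 7 genes in Igf2bp3-RIP, and a minimum of 10 counts in every library 0 peaks. Total counts moved the median of all genes by -0.15 in m6A-RIP rows (3842 higher and 7638 lower in place of 5665 and 6005) and by 0.14 in Igf2bp3-RIP relative to RNA (33 higher and 13 lower in place of 14 and 27), and turned Myh9 (0.0504) and Plec (0.0409) there; among the few calls in Igf2bp3-RIP per gene the split went from 6 higher and 7 lower to 5 and 2. Without 1 library, counts were 39 to 76 in Igf2bp3-RIP per gene, 108 to 193 per peak, 300 to 620 in m6A relative to RNA and 0 to 570 in Igf2bp3-RIP relative to RNA (0 without any 1 of the input libraries, 570 without Lin28a+ replicate 1). The cause was not tested.

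Directions that turned in some fits without 1 library were, in Igf2bp3-RIP, those of Ahnak (-1.34 to 0.316), Flna (-1.20 to 0.334), Plec (-1.55 to 0.510), Macf1 (-1.07 to 0.0408) and Myh9 (-1.29 to 0.0880), and, relative to RNA, those of Ahnak (-0.362 to 1.31), Fat1 (-0.174 to 0.651), Flna (-1.51 to 0.0423), Lrp1 (-0.952 to 0.711), Myh9 (-0.893 to 0.499) and Plec (-1.30 to 0.771). In m6A relative to RNA, Hspg2, at -0.0038, turned to 0.0113 with DESeq2, 0.0122 with other size factors, 0.00884 with total counts and 0.0239 with at least 10 counts, and lay between -0.0588 and 0.0519 without 1 library. Lrp1 turned to 0.00113 with at least 10 counts and lay between -0.0980 and 0.0463 without 1 library. The overlap of Lin28a-RIP peaks was 39.3% when each peak had to cover 50% of the other (main 53.0%).

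With the replicate block, Igf2bp3-RIP had 370 genes and 1988 peaks called, and 1304 genes relative to RNA, where the block was set within the Igf2bp3-RIP libraries. Lrp1 was then called (-0.98, adjusted p = 0.0108), as were Flna (-0.69, adjusted p = 0.0256), Hspg2 (-0.55, adjusted p = 0.00727) and Macf1 (0.82, adjusted p = 0.0129) relative to RNA. The difference of replicate 2 from replicate 1 correlated between control and Lin28a+ MuSCs at r = 0.69 across 4524 genes, which are not independent, but no label ties a number to a shared day or culture. No paired analysis was possible because the Lin28a+ columns carry no usable replicate number for RNA, m6A-RIP and m6A relative to RNA.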
